A study of Mus musculus with 2 samples.

Results

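Ncam1 is 1 of 33696 genes measured in single cells of ID8 tumours, and it is described here across the cells that carry it and the genes found with it. ID8 is a cell line from mouse ovarian surface epithelium that grows as ovarian cancer in mice. The study compared 2 libraries, 1 of primary, treatment-naive solid tumours and 1 of chemoresistant solid tumours exposed to cisplatin, a drug that crosslinks DNA. Each library was made from pooled suspensions of collagenase-digested tumours, so each group is 1 sample, no animal can be told from another, and no difference has a replicate check. Strain, age, the number of tumours and the cisplatin schedule are not given in the sources used here. After filtering, 27732 barcodes remained, 12824 primary and 14908 chemoresistant. Tumour cells were taken by rule as barcodes with at least 5 UMIs (unique molecular identifiers, each standing for 1 captured RNA) of Krt8, Krt18 and Krt19 together and at most 1 UMI of the leukocyte gene Ptprc, here called the tumour gate. It held 910 primary and 3478 chemoresistant barcodes, of which 63 and 1018 carried at least 1 Ncam1 UMI. Cells were selected on their measured keratin, Ptprc and Ncam1 UMIs, and the gene and this contrast were chosen with earlier results of these data known, so the values below are descriptions. All intervals are 95% intervals that cover counting error only, exact Poisson for counts and exact Clopper-Pearson for shares. Those of log2 ratios are normal approximations from the Poisson counts.

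Ncam1 encodes the neural cell adhesion molecule, a membrane protein of the immunoglobulin superfamily that binds copies of itself on neighbouring cells. It also binds fibroblast growth factor receptors, heparan sulphate proteoglycans and GDNF, signals through the kinases Fyn and Ptk2, and can carry polysialic acid, which weakens adhesion. It is best known in neurons and muscle, and also marks some mesenchymal and tumour cells. Human natural killer cells carry it as CD56, while those of mice do not. The gene (ENSMUSG00000039542) lies on chromosome 9 of mm10 from 49502136 to 49798925 on the minus strand, a span of 297 kb, and the antisense gene Gm11149 (49518288 to 49572591) lies inside it. Whether counting used strand is not stated in the labels, so reads of Gm11149 in Ncam1 counts were not tested. The 3' tags counted here do not part the isoforms.

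The chemoresistant library held 10210 Ncam1 UMIs in the barcodes kept, and the primary library 1445. The tumour gate held 66.4% of the chemoresistant Ncam1 UMIs and 39.4% of the primary ones. In the tumour gate, Ncam1 stood at 17.0 CPM (counts scaled to a total of 1e6 UMIs) in the primary library (15.7 to 18.5) and at 72.6 CPM in the chemoresistant library (70.9 to 74.3). The difference was 1.82 on the log2 scale with 5 CPM added to each level (1.72 to 1.91), or 3.52-fold. Of 6761 genes with a mean of at least 20 CPM in the tumour gate, 5.09% were at least 1.5-fold higher and 12.5% at least 1.5-fold lower in the chemoresistant library, with a median log2 difference of -0.11. The share of tumour-gate cells with an Ncam1 UMI was 6.92% (5.36 to 8.77%) in the primary and 29.3% (27.8 to 30.8%) in the chemoresistant library. Median depth was 31405 and 22040 UMIs per cell, so the library with the higher share was the shallower one.

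The difference between libraries was not the same in all tumour-gate cells. Cells were divided by the summed UMIs of the fibrillar collagen genes Col1a1, Col1a2 and Col3a1, which are typical of fibroblasts. In cells with under 10 collagen UMIs, Ncam1 was 2.78 CPM in the primary and 62.9 CPM in the chemoresistant library, a log2 difference of 3.13 (3.01 to 3.24). In cells with at least 10, it was 225 and 216 CPM, a log2 difference of -0.06 (-0.20 to 0.09). The few collagen-rich cells thus carried like levels in both libraries, and the collagen-poor cells did not. The difference between these differences has no test with 1 library per group. Barcodes that passed the tumour gate and the gate of another cell class made up 51.8% of the primary and 30.6% of the chemoresistant tumour gate. The other gates differed between libraries. The enterocyte gate (Vil1, Cdh17, Apob and Alpi) was passed by 139 primary and 5 chemoresistant barcodes, and the mononuclear phagocyte gate by 95 and 445. The dendritic gate was passed by 178 and 456, of which 176 and 446 held its member Zbtb46. Which cells these are was not tested. In the tumour gate alone Ncam1 was 8.37 CPM (6.81 to 10.2) and 86.9 CPM (84.4 to 89.5). In barcodes that passed another gate too, it was 21.7 CPM (19.8 to 23.8) and 54.4 CPM (52.1 to 56.7).

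Ncam1 was spread unevenly among tumour-gate cells. In the chemoresistant library 771 cells held at least 2 UMIs, 464 at least 5 and 229 at least 10, with a median of 4 among positive cells and a highest value of 94. In the primary library these numbers were 39, 25 and 19 cells, a median of 3 and a highest value of 67. To set aside depth, each cell was thinned at random to 5000 UMIs, which left out 87 primary and 250 chemoresistant cells. After thinning, 3.65% of primary (2.47 to 5.16%) and 18.2% of chemoresistant cells (16.9 to 19.6%) held Ncam1. Had the same UMIs been spread evenly, a Poisson distribution would give 9.37% and 34.6%. Cells with at least 3 thinned UMIs made up 1.22% and 5.70%, against 0.0148% and 0.930% under Poisson. The variance over the mean was 4.75 in the primary and 3.37 in the chemoresistant library, where the median of all genes was 1.16 and 1.10. Ncam1 RNA was thus concentrated in a minority of tumour-gate cells in both libraries.

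**Figure D1:**
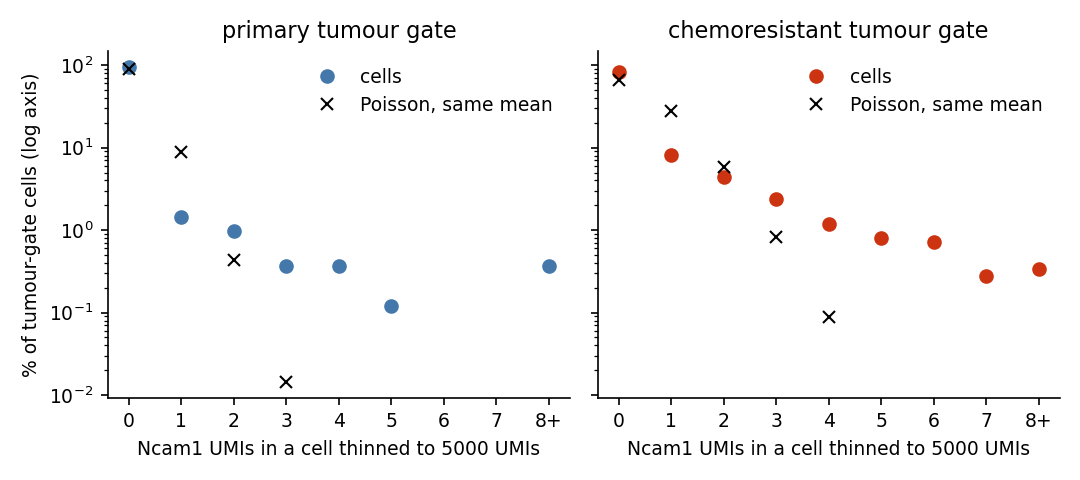
Share of tumour-gate cells (log axis, percent) by number of Ncam1 UMIs after thinning each cell to 5000 UMIs, in the primary (left) and chemoresistant (right) library; circles are cells and crosses the Poisson shares for the same mean, drawn where above 0.01%. In both libraries the circles lie below the crosses at 1 UMI and above them from 3 UMIs on, with 5.70% of chemoresistant cells at 3 or more.

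Barcodes of the fibroblast gate carried the highest Ncam1 level of any class with at least 50 barcodes in both libraries. The fibroblast gate (at least 10 UMIs of Col1a1, Col1a2, Col3a1 and Dcn, under 5 keratin UMIs, at most 1 of Ptprc) gave 95.7 CPM in the primary library (84.2 to 108), with 20.5% of 219 barcodes positive. In the chemoresistant library it gave 347 CPM (329 to 366), with 78.3% of 323 barcodes positive. The log2 difference of 1.80 (1.62 to 1.99) was close in size to that of the whole tumour gate. The gate's barcodes were not alike in the 2 libraries. In the primary and chemoresistant library they held 105 and 3139 CPM of Spp1, 19.1 and 645 of Ero1a and 3741 and 1410 of Col3a1. Col1a1 was closer, at 2298 and 2079 CPM. Whether the gate holds the same cell type in both was not tested. Endothelial cells of the primary library came next at 49.3 CPM (31.9 to 72.7), but 2 of 64 barcodes held all 25 UMIs. The 7 chemoresistant endothelial barcodes held 0, an interval of 0 to 41.0% for the share with a UMI. Barcodes that passed no gate held 8.79 CPM (6.50 to 11.6) and 107 CPM (100.4 to 114). Among chemoresistant classes of at least 50 barcodes the order was therefore fibroblast gate, no gate, then tumour gate, with intervals that did not overlap.

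Leukocyte classes of at least 50 barcodes carried less Ncam1 than the whole tumour gate of the same library. In the primary library T cells stood at 0.40 CPM, B-lineage cells at 0.55, dendritic cells at 0.57, mononuclear phagocytes at 1.44 and neutrophils at 9.47 CPM. In the chemoresistant library the same classes stood at 20.7, 26.4, 30.8, 13.2 and 34.0 CPM. Primary neutrophils (6.56 to 13.2 CPM) were not below the primary tumour gate alone (8.37 CPM) or its collagen-poor cells (2.78 CPM). Within each library the intervals of T cells, B-lineage cells and dendritic cells overlapped. Natural killer cells held 0 Ncam1 UMIs in 42 primary and 12 chemoresistant barcodes, with intervals for the share of barcodes with a UMI of 0 to 8.41% and 0 to 26.5%.

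Ncam1 in leukocyte barcodes was compared with their keratin and collagen UMIs. Of the chemoresistant leukocyte barcodes, 2.29% held Ncam1 at a median depth of 3250 UMIs, against 0.569% at 5316 UMIs in the primary library. The 4161 chemoresistant leukocyte barcodes with no keratin or collagen UMI held 2.02 CPM (1.36 to 2.89), with 27 positive barcodes at 1.11 Ncam1 UMIs each. The 3316 with such a UMI held 26.2 CPM (24.2 to 28.2), with 144 positive barcodes at 4.73 UMIs each. Ncam1-positive chemoresistant leukocyte barcodes held a mean of 28.4 keratin and 16.2 collagen UMIs, against 2.02 and 0.112 in the negative ones. Ncam1 in leukocyte barcodes thus lay mostly in those that also held keratin or collagen RNA. These groups were not matched in depth, with medians of 2275 UMIs without and 5257 UMIs with a keratin or collagen UMI, and 14848 UMIs in the positive barcodes. The part of free RNA or mixed barcodes was not tested.

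**Figure D2:**
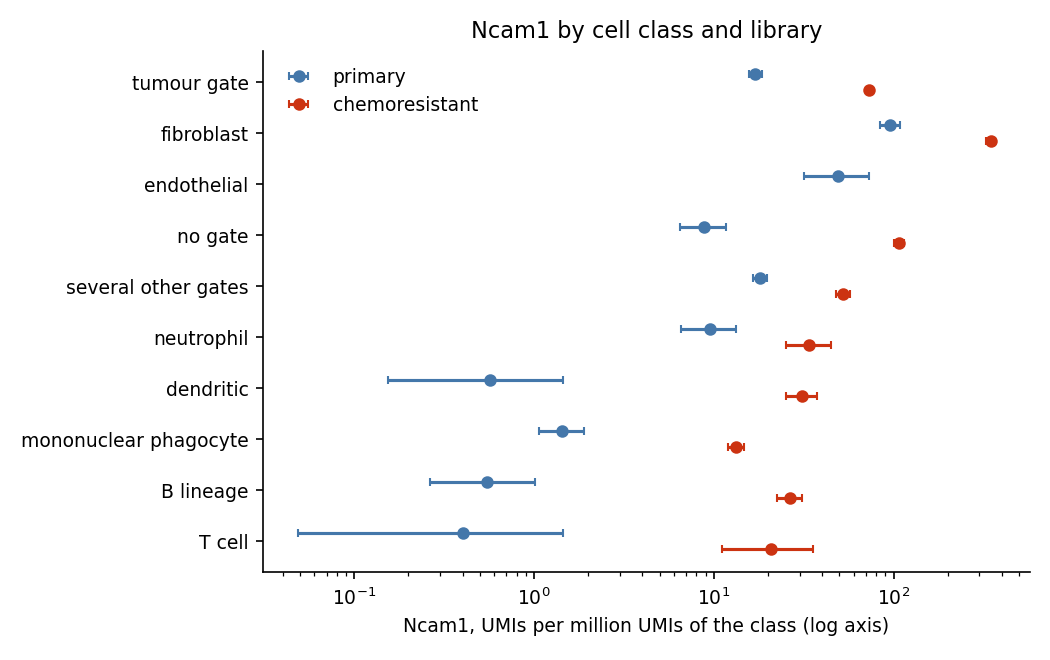
Ncam1 level (CPM, log axis) in each cell class of the primary (blue) and chemoresistant (red) library; points are sums over the class and bars exact Poisson 95% intervals, with classes at 0 UMIs left out. The fibroblast gate is highest in both libraries (95.7 and 347 CPM), and the tumour gate stands at 17.0 and 72.6 CPM.

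Ncam1 did not follow the keratins. Among chemoresistant barcodes with at most 1 Ptprc UMI, Ncam1 was 57.5 CPM at 0 keratin UMIs, 119 at 1 to 2, 249 at 3 to 4, 218 at 5 to 9, 124 at 10 to 49 and 40.9 at 50 or more. The steps with the highest levels lay on both sides of the tumour gate's limit of 5. The 385 barcodes just outside, with 3 to 4 keratin UMIs, were positive in 37.1%, and the 506 with 5 to 9 in 41.3%. In the primary library the same 6 steps were 27.9, 67.4, 37.3, 56.1, 41.4 and 2.38 CPM. Keratin UMIs grow with depth, so these steps differ in depth as well.

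For the genes found with Ncam1, the 1018 positive chemoresistant tumour-gate cells were set against 1018 negative ones drawn from the same 20 depth bins. Median depth was 24658 and 24959.5 UMIs. Positive cells had a median of 5098 detected genes against 5485, 32 keratin UMIs against 60 and 3.17% mitochondrial UMIs against 3.89%. At least 10 collagen UMIs were found in 15.3% of positive and 1.57% of negative cells, and a Ptprc UMI in 12.7% and 15.8%. The part of these differences in the results below was not tested, except where values without those cells are given. Of 6331 genes with a mean of at least 20 CPM, Ncam1 left out, 387 (6.11%) were at least 1.5-fold higher and 468 (7.39%) at least 1.5-fold lower in positive cells, with a median log2 ratio of -0.09. The rule asked for this contrast, so the counts carry no test. The shares of 6.11% and 7.39% are the background for the counts of each list below.

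Hypoxia genes, which cells switch on when oxygen is low, were higher as a group. Of 11 tested hypoxia genes 11 were at least 1.5-fold higher, with a median log2 ratio of 1.88. Ero1a, an oxidoreductase of the endoplasmic reticulum, stood at 691 CPM in positive and 88.2 CPM in negative cells, a log2 ratio of 2.90 (2.85 to 2.96). Ndrg1, a stress-induced gene, stood at 756 and 107 CPM (log2 2.77, 2.72 to 2.82). Vegfa, the growth factor of blood vessels, stood at 359 and 58.1 CPM (2.53, 2.46 to 2.60) and was detected in 86.9% and 52.9% of cells. The mitophagy receptor Bnip3 was at 205 and 39.2 CPM, the glucose transporter Slc2a1 at 97.3 and 18.1, and the prolyl hydroxylase Egln3 at 232 and 59.2. The glycolytic genes Pgk1 (1162 and 368 CPM) and Ldha (1030 and 553 CPM) had smaller ratios of 1.65 and 0.89. Ndufa4l2, a mitochondrial protein known as hypoxia-induced but not in the list, stood at 233 and 16.0 CPM (3.50, 3.40 to 3.61).

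Immediate early genes, the fast transcription factors and regulators that answer growth signals and stress, were also higher in 10 of 10 cases, with a median log2 ratio of 1.58. Fosb stood at 519 CPM in positive and 66.0 CPM in negative cells (2.88, 2.82 to 2.95), Atf3 at 433 and 70.5 (2.54), Fos at 894 and 176 (2.31), and Jun at 490 and 158 (1.60). Between the libraries the same list went the other way. There 10 of 10 genes were at least 1.5-fold lower in the chemoresistant tumour gate (median -1.74), against 12.5% of all tested genes. Ncam1-positive cells thus held more of these RNAs within a library that held less of them. Heat shock genes, a list added after the values had been seen, were higher in 6 of 8 cases with a median of 1.09. Cryab, a small chaperone, stood at 589 and 95.9 CPM (2.56), and for Hspa1b (2.62) and Hspa1a (2.52) 1 cell held 23.1% and 35.8% of the UMIs.

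Of 14 tested mesenchymal genes 10 were at least 1.5-fold higher and 1 lower, with a median log2 ratio of 1.07. The collagens led, with Col1a1 at 195 CPM in positive and 7.58 CPM in negative cells (3.99, 3.87 to 4.11), Col3a1 at 2.91 and Col1a2 at 2.79. Without collagen-rich cells, the median of the list was 0.26. The log2 ratios were then 0.53 for Col1a1, 0.26 for Col3a1 and 0.19 for Col1a2, genes which that choice of cells itself holds low. The matrix crosslinking enzyme Lox (2.43 in all cells, 1.97 without collagen-rich cells), fibronectin Fn1 (2.00 and 1.82) and vimentin Vim (0.97 and 0.87) stayed at least 1.5-fold higher. The contractile genes Tagln (2.76 and 0.85), Acta2 (1.18 and -0.54) and Myl9 (0.81 and -0.35) lost most of their ratio or changed sign. Col6a1, a microfibrillar collagen, was the member that was lower (-0.69).

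Other genes among the 15 highest were Spp1, encoding the secreted phosphoprotein osteopontin, at 801 and 75.8 CPM (3.32), Serpinf1, a secreted inhibitor of vessel growth, at 125 and 13.8 (2.78), the lipoprotein receptor Vldlr at 83.9 and 9.15 (2.65), and the cytidine deaminase Cda (2.60). Cda was detected in 45.1% of positive and 5.40% of negative cells. Mitosis genes were higher in 6 of 6 cases (median 0.96), among them Mki67 at 29.3 and 12.4 CPM (0.98) and Top2a at 80.4 and 36.2 CPM (1.05). In cells thinned to 5000 UMIs, with Ncam1 called after thinning, the mitosis median was 0.38, under the 1.5-fold line. Mki67 was detected in 16.9% and 8.84% of cells.

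MHC class II genes, which present antigen to helper T cells, were lower in 6 of 6 cases with a median log2 ratio of -1.35. This list was also added after the values had been seen. H2-Aa stood at 379 CPM in positive and 1083 CPM in negative cells (-1.50, -1.53 to -1.47), H2-Eb1 at 276 and 748 (-1.42), and the invariant chain Cd74 at 780 and 2028 (-1.37). Professional antigen-presenting cells held more: the dendritic gate of this library had 5166 CPM of H2-Aa and 9027 CPM of Cd74. With barcodes that pass any other gate left out, the list median was -1.64. Between the libraries 5 of 6 of these genes were at least 1.5-fold higher in the chemoresistant tumour gate, against 5.09% of all tested genes.

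Mesothelial and ovarian surface genes were lower in 5 of 7 cases, with a median of -1.15. The uroplakins Upk3b (219 and 448 CPM, -1.02) and Upk1b (63.9 and 152, -1.19), the mucin Muc16 (32.0 and 84.4, -1.27) and Gpm6a (89.5 and 232, -1.33) were among them. Wt1, a transcription factor of this lineage, was at 424 and 539 CPM (-0.34) and was detected in 97.2% and 98.6% of cells, and Msln was at 52.6 and 55.4 CPM (-0.07). Wt1 was thus found in nearly all cells of both kinds. Epithelial junction genes were lower in 2 of 8 cases (median -0.29), with Krt7 at -0.86, Jup at -0.62 and Epcam at -0.41. Others among the 15 lowest were the secreted protein gene Ahsg (28.7 and 110 CPM, -1.77), the adhesion linker Ctnna2 (61.7 and 220, -1.75), the potassium channel subunits Kcnd2 (-1.49) and Kcnab1 (-1.50), the claudin Cldn15 (-1.45), Fxyd3, a regulator of the sodium pump (210 and 578, -1.44), the haptoglobin gene Hp (-1.37), and Ldhb, a lactate dehydrogenase subunit (422 and 1084, -1.35). Pgc (-1.93), Pcnx2 (-1.53) and Unc45b (-1.34) complete them with Iglc1, an immunoglobulin gene at -3.84 for which 1 cell held 95.5% of the UMIs.

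**Figure D3:**
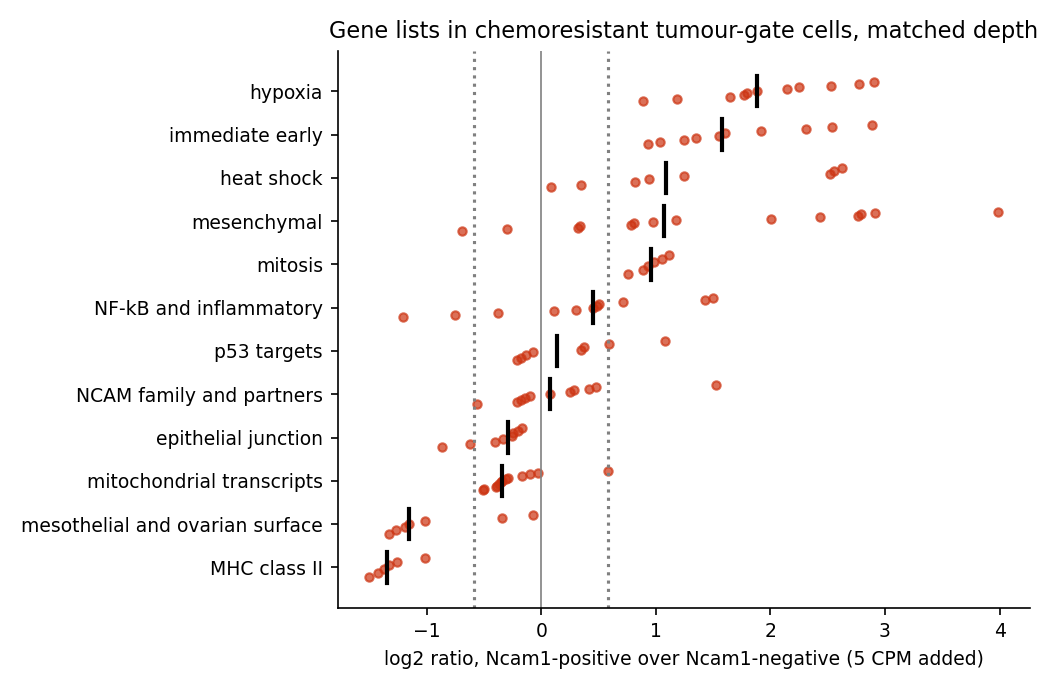
Log2 ratio of Ncam1-positive over Ncam1-negative chemoresistant tumour-gate cells at matched depth (x axis, 5 CPM added) for each tested gene of 12 lists; dots are genes, black bars medians and dotted lines 1.5-fold. Hypoxia and immediate early genes lie wholly to the right of the upper line (medians 1.88 and 1.58) and MHC class II genes wholly to the left of the lower one (-1.35).

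For Ncam1's own partners the shares were near those of all genes. Of 28 genes of the NCAM family, its ligands, receptors and signalling partners, 11 passed the filter, 1 was at least 1.5-fold higher and 0 lower, where 6.11% and 7.39% of all tested genes were, with a median of 0.07. The higher gene was Gdnf, encoding a secreted ligand that binds NCAM, at 38.0 CPM in positive and 9.94 CPM in negative cells (1.53, 1.39 to 1.66). The receptor Fgfr1 stood at 110 and 77.8 CPM (0.48), Fgfr2 at 47.7 and 54.4 (-0.17), the proteoglycan Gpc1 at 83.5 and 67.4 (0.29), Ptk2 at 99.0 and 82.6 (0.25) and Fyn at 26.4 and 41.2 (-0.56). Among the genes under the filter were the polysialic acid enzymes St8sia2, with 1 UMI in each kind of cell, and St8sia4, with 89 UMIs in positive and 93 in negative cells. Ncam2 had 6 and 1 UMIs, L1cam 3 and 3. Of 12 neuronal and neuroendocrine genes 10 were under the filter, and Tubb3 (0.41) and Uchl1 (0.05) were within 1.5-fold. Of the gene's 6 neighbours on chromosome 9, 2 were tested, Rpl10-ps3 at 0.02 and Pts at -0.47.

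The remaining lists were mixed. NF-kB and inflammatory genes were higher in 3 (Cxcl1 at 162 and 54.0 CPM, Zfp36 1.43, Lcn2 0.72) and lower in 2 (Cxcl17 -1.21, Saa3 -0.75) of 11 cases, with a median of 0.45. Genes controlled by p53 were higher in 2 of 8 (Btg2 1.08, Cdkn1a 0.59; median 0.14). Of 6 tested stem-associated genes, Klf4 (1.64) and Cd44 (1.59) were higher and Aldh1a1 (-1.15) lower, with a median of 0.17. Of 12 genes singled out earlier in these data as higher in the chemoresistant library, 3 were higher and 5 lower in Ncam1-positive cells (median -0.16), against 6.11% and 7.39% of all tested genes. In the tumour gate used here 10 of the 11 that could be compared were at least 1.5-fold higher in the chemoresistant library. The remaining gene, Mgst2, was lower. Of all genes tested between the libraries 5.09% were higher and 12.5% lower. These genes were named for that difference in the same data, so the count is no separate check. Mitochondrial transcripts were within 1.5-fold in 13 of 13 cases (median -0.35) and nuclear-retained RNAs in 4 of 4 (median -0.19).

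Many of the named genes differed further among positive cells. In cells thinned to 5000 UMIs, 2640 held 0, 262 held 1, 142 held 2 and 184 held 3 or more Ncam1 UMIs. Ndrg1 stood at 195, 861, 1011 and 1516 CPM over these 4 steps. Vegfa stood at 108, 482, 614 and 720 CPM. In the other direction H2-Aa stood at 976, 306, 286 and 129 CPM, and Fxyd3 at 514, 140, 118 and 29.3 CPM. The step from 0 to 1 repeats the contrast by which the genes were chosen. The later steps lie among the positive cells that also entered that choice, so the order is no separate check. The share of all tested genes that kept such an order was not counted. Over 1, 2 and 3 or more UMIs, 11 of the 15 highest genes went up at each step and 10 of the 15 lowest went down at each step. Spp1 (918, 752 and 988 CPM), Tagln (64.9, 211 and 109), Cd74 (582, 673 and 297) and Kcnd2 (318, 345 and 174) did not keep that order.

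**Figure D4:**
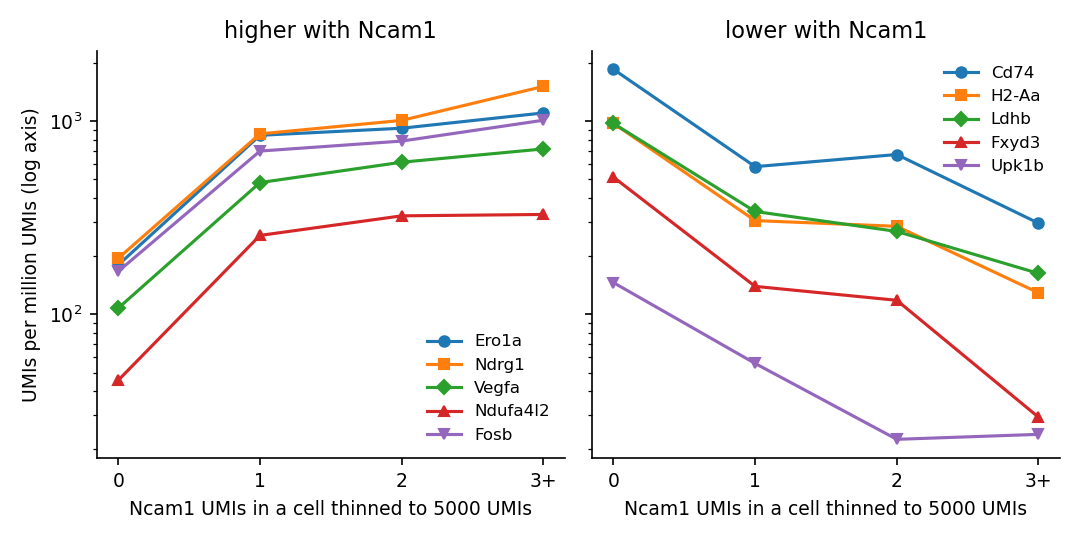
Level (CPM, log axis) of 5 genes that were higher (left) and 5 that were lower (right) with Ncam1, in chemoresistant tumour-gate cells with 0, 1, 2 and 3 or more Ncam1 UMIs after thinning to 5000 UMIs; each point is 1 sum over cells and lines join the steps. Ndrg1 goes from 195 to 1516 CPM and H2-Aa from 976 to 129 CPM.

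Read from the other side, the share of chemoresistant tumour-gate cells with Ncam1 was highest in the cells with most hypoxia-list UMIs. Cells thinned to 5000 UMIs were put in quintiles by the summed UMIs of each list. Over the quintiles of the hypoxia list, 5.73%, 5.42%, 6.51%, 14.9% and 58.6% (54.7 to 62.4%) of cells held Ncam1. Among cells with under 10 collagen UMIs, the highest and lowest quintiles held 57.4% and 4.75%. Over the immediate early quintiles the share went from 5.11% to 53.5%, over the mesenchymal quintiles from 2.79% to 55.2%, over the epithelial junction quintiles from 30.0% down to 11.6%, and over the MHC class II quintiles from 37.8% down to 2.95%. The median depth before thinning ranged from 22109.5 to 26118.5 UMIs over the hypoxia quintiles.

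With all tumour-gate cells counted, the primary library differed in the order of 2 lists, hypoxia and immediate early. It went the same way for the other 3. Its hypoxia quintiles held 3.64%, 2.42%, 5.49%, 3.03% and 3.66% positive cells, with overlapping intervals. Its immediate early quintiles went from 3.64% to 0.610%. Its mesenchymal quintiles went from 0 of 165 cells (0 to 2.21%) to 15.2% (10.1 to 21.7%), and 29.9% of cells with at least 10 collagen UMIs were positive against 0.938% of the others. In the chemoresistant library those 2 shares were 53.3% and 15.9%. Over the primary MHC class II quintiles the share was 6.67%, 4.85%, 3.05%, 2.42% and 1.22%, and over the epithelial junction quintiles 6.06%, 6.67%, 3.05%, 0.606% and 1.83%. Each primary quintile rested on 164 or 165 cells. Among primary cells with under 10 collagen UMIs, the highest and lowest MHC class II quintiles held 1.32% and 0.671%. The epithelial junction ones held 0.654% and 0%, so neither list kept its order there, with overlapping intervals. The mesenchymal ones held 2.97% and 0%. The hypoxia ones held 1.29% and 0.649% and the immediate early ones 0.641% and 1.33%, again with overlapping intervals. Of 746 primary cells with under 10 collagen UMIs only 7 were positive, too few to show an order over hypoxia or immediate early quintiles. In such chemoresistant cells the shares were 2.67% and 34.0% for MHC class II and 11.3% and 23.0% for epithelial junction.

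**Figure D5:**
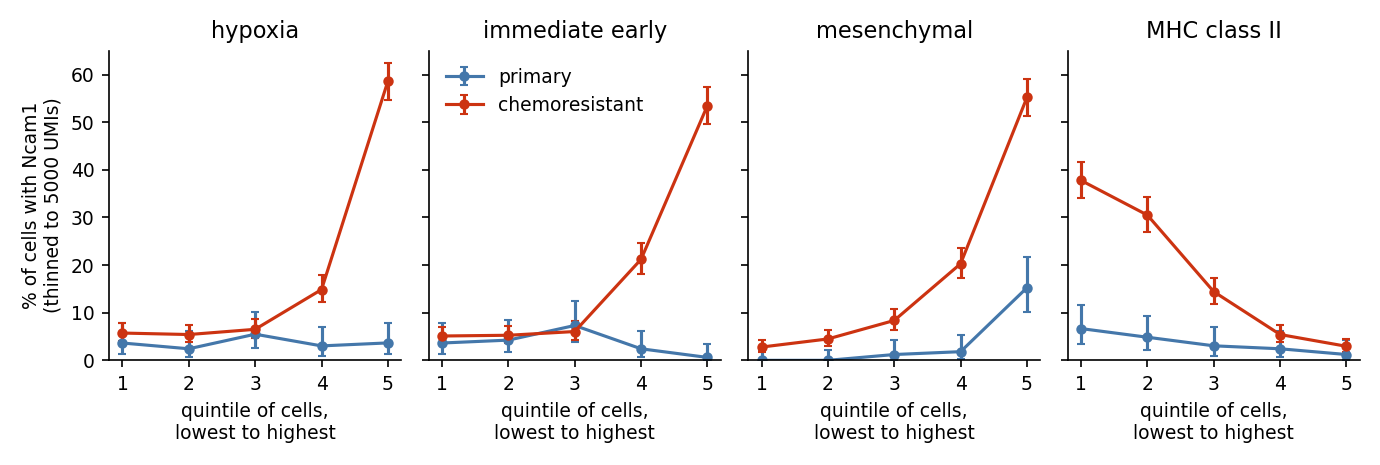
Share of tumour-gate cells with Ncam1 (percent, cells thinned to 5000 UMIs) over quintiles of cells ordered by the summed UMIs of 4 gene lists, in the primary (blue) and chemoresistant (red) library; bars are exact 95% intervals. The highest hypoxia quintile reaches 58.6% in the chemoresistant and 3.66% in the primary library.

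The positive and negative cells of the primary library, which the rule did not use, gave like directions for most of the lowest genes and mixed directions for the highest. There 63 positive cells were matched to 63 negative ones, and 73.0% of the positive cells held at least 10 collagen UMIs against 4.76% of the negative. Median keratin UMIs were 18 in the positive and 50 in the negative cells. The part of these differences in the directions given here was not tested. Of the 6331 genes, 10.4% were at least 1.5-fold higher and 15.5% at least 1.5-fold lower in primary positive cells. Of the 15 highest genes of the chemoresistant comparison, 7 were at least 1.5-fold higher in primary positive cells and 6 at least 1.5-fold lower. Ero1a was 62.5 CPM in positive and 140 CPM in negative primary cells (-1.11), Vegfa 69.9 and 281 (-1.93), and Fosb 589 and 900 (-0.61). Col1a1 was 1748 and 31.9 CPM (5.57), Cryab 826 and 71.1 (3.45), and Serpinf1 134 and 23.1 (2.31). The 15 lowest genes included 11 that were 1.5-fold or more lower in primary positive cells, and 0 that were higher by as much. H2-Aa was 236 and 496 CPM (-1.05), Fxyd3 33.7 and 253 (-2.73), and Ldhb 309 and 856 (-1.46). Of the 387 higher genes 131 were higher and 89 lower in the primary library, and of the 468 lower genes 38 were higher and 208 lower.

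Cells outside the tumour gate, a comparison chosen after the data had been seen, were also unused by the rule. In the chemoresistant barcodes that passed no gate and had at most 1 Ptprc UMI, 172 positive and 172 negative cells were set side by side. There 11 of 11 hypoxia genes and 8 of 10 immediate early genes were at least 1.5-fold higher, where 15.8% of all genes were, and 7 of 7 MHC class II genes were at least 1.5-fold lower, where 21.4% were. Mitosis genes went the other way than in the tumour gate, with 0 of 3 higher and 3 lower (median -1.03), and heat shock genes were higher in 2 and lower in 2 of 8 cases. Mesenchymal genes were higher in 6 and lower in 2 of 10 cases, and mesothelial genes lower in 5 of 6. With 5 depth bins, the medians were 5686.5 and 4019 UMIs. The negative cells held 1712 CPM of H2-Aa and 3393 CPM of Cd74, against 143 and 275 CPM in the positive ones. Over all barcodes that passed no gate, negative ones held a mean of 1.14 keratin UMIs and positive ones 4.73. The part of leukocyte RNA, cell type and depth in all of these no-gate counts was not tested. In the chemoresistant fibroblast gate, with 70 cells of each kind, 4 of 12 hypoxia genes were higher and 1 lower (background 9.17% and 11.8%), and Vegfa stood at 668 and 349 CPM (0.93). Immediate early genes were within 1.5-fold in 10 of 10 cases there, and MHC class II genes were lower in 5 of 6. In the primary fibroblast gate, with 45 cells of each kind, 0 of 7 hypoxia genes were higher and 3 lower, against 12.5% and 15.8% of all genes, while 9 of 9 mitosis genes were higher. The chemoresistant fibroblast gate as a whole held 645 CPM of Ero1a and 683 CPM of Ndufa4l2, near to or above the levels of Ncam1-positive tumour-gate cells.

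Over 15 class profiles (7 or 8 classes in each library with at least 50 barcodes), the genes whose log levels were most like Ncam1's among 10984 genes were Cryab (r = 0.946), Myl9 (0.944), Ak1 (0.927), Rasl11a (0.910), Mfge8 (0.909), Smtn (0.896), Bgn (0.895), Lmcd1 (0.895), Ndufa4l2 (0.894) and Ston1 (0.892). The profiles share 2 libraries and the fibroblast gate stands high in both, so r is a description. Of these 10 genes, Cryab and Ndufa4l2 were also among the 15 highest in Ncam1-positive cells. Ak1 (-0.13), Mfge8 (0.02) and Ston1 (-0.27) were within 1.5-fold there.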

How the data were processed

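The authors deposited raw UMI counts for each barcode, made with Cell Ranger 8.0.1 on mm10, per the submitters' processing notes. Barcodes were kept with at least 500 UMIs, 250 genes and at most 20% mitochondrial UMIs. The libraries held 141334623 (primary) and 158118781 (chemoresistant) UMIs and shared 52 barcode sequences. Classes were set by marker UMI gates, with the tumour gate counted whole, not by clustering. No doublet caller was run; barcodes passing several gates were counted and left out in an alternative. Levels are summed counts scaled to 1e6 (CPM). Positive and negative cells were drawn in equal number from 20 depth bins, and ratios are log2 of CPM plus 5. Calls needed 1.5-fold and a mean of 20 CPM. With 1 library per group no test was made. Named genes were the 15 highest, the 15 lowest, the list members and the 10 most alike by class. Members and lists were chosen with earlier results of these data known. The depth-matched comparison was tested on simulated counts without cell types or mixed barcodes, and the thinning was checked for its UMI totals. Gates, quintiles and class correlations were not simulated. Gene coordinates are from GENCODE on GRCm38, the same assembly as mm10. Python 3.11.15, numpy 2.4.6 and scipy 1.17.1 were used.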

Additional observations from a re-analysis of the deposited data

How the results depend on the processing

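The log2 difference of Ncam1 between libraries in the tumour gate (1.82) was 2.78 without barcodes passing another gate, 3.13 without collagen-rich barcodes and 2.03 with 1 CPM added. The share of positive chemoresistant tumour-gate cells (29.3%) was 27.7% with at least 10 keratin UMIs and no Ptprc, 26.3% without collagen-rich barcodes, 18.2% after thinning and 22.2% when 2 UMIs were required. The 387 higher genes became 629 when a mean of 5 CPM sufficed. The other alternatives gave 328 to 569 higher and 374 to 682 lower genes, and the 5 CPM limit 690 lower genes. With another random draw of negative cells, 359 of the 387 and 401 of the 468 genes were called again. Of 330 values for 30 named genes under 11 alternatives, 4 changed sign, all of Iglc1: 0.13 without the barcode filter, 0.079 without barcodes passing another gate, 0.10 with another draw and 0.18 without cycling cells. The collagens Col1a1, Col3a1 and Col1a2 fell under 1.5-fold only without collagen-rich barcodes. The hypoxia median ranged from 1.78 to 2.18 and the MHC class II median from -1.91 to -1.28. The mitosis median (0.96) was 0.38 after thinning and the mesenchymal median (1.07) was 0.26 without collagen-rich barcodes, both under the 1.5-fold line. No mitosis median could be had without cycling cells. The cause of each change was not tested. A level near 1 UMI per cell cannot part a negative cell from one missed at its depth. No paired analysis was possible because each group is 1 library of pooled tumours.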

Other observations

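Ncam1 also differed with other traits of the chemoresistant tumour-gate cells, read after thinning to 5000 UMIs. Cells with a Cxcl1 UMI, a neutrophil-attracting chemokine, were positive in 32.5% (28.7 to 36.5%) and those without in 15.2% (13.8 to 16.6%). Cycling cells, with a UMI of Mki67, Top2a or Cdk1, were positive in 21.3% and the others in 17.8%, with overlapping intervals. The 250 cells with under 1% mitochondrial UMIs were positive in 35.6% (29.7 to 41.9%) and the others in 16.8% (15.4 to 18.1%), at a median depth of 15482 and 24786.5 UMIs. Over quintiles of depth the share was 17.6%, 20.6%, 22.8%, 18.9% and 11.2%, from the shallowest to the deepest cells.

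Ncam1 spans 297 kb, and the genes found with it were mostly shorter. The median span was 23.9 kb for the 387 higher genes, 26.4 kb for the 468 lower genes and 26.1 kb for all tested genes. Spans over 100 kb made up 19.4%, 24.1% and 16.0%.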
